A study of Mus musculus with 3 samples.

Results

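Histone cluster genes are the replication-dependent histone genes that lie in tight groups in the mouse genome and carry symbols beginning with Hist1h, Hist2h, Hist3h or Hist4h. They were taken as all symbols of that form with at least 20 unique molecular identifiers (UMIs, each 1 captured RNA molecule) summed over the cells of the 3 libraries. Of 67 such symbols, 62 met the minimum, out of 32285 features and 16671 genes that met it. The members comprised 5 linker histone genes (H1), 16 H2A, 16 H2B, 12 H3 and 13 H4 genes. The 5 symbols left out were Hist1h2aa with 7 UMIs, Hist1h1t with 1 UMI and Hist2h2aa2, Hist1h2ba and Hist1h2bq, which were listed at 0. The member just inside the minimum was Hist2h3c2, with 44 UMIs.

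Core histones H2A, H2B, H3 and H4 form the protein spool around which DNA is wound, and H1 seals the DNA where it enters and leaves the spool. A cell that copies its DNA must also make a new set of histones, so most of these genes are transcribed in S phase, the phase of DNA replication. Their mRNAs are unusual in that most end in a short stem-loop in place of a poly(A) tail, and the stem-loop binding protein SLBP carries them through processing, translation and decay. Some members also make a spliced or read-through form with a poly(A) tail, which is known from cells that have stopped dividing. In the colon, dividing cells lie in the lower crypt and differentiated cells line the surface.

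The cells came from organoids grown from the colon epithelium of wild-type mice and held in full growth medium, all 3 cultures alike. One library was made from untreated organoids, one after 24 h and one after 48 h with the cytokine IFN-γ, and live cells were sorted before capture. Each condition was 1 library, so no test across samples was possible, and every interval given here is a 95% interval for counting error only. A 3′ kit that primes on poly(A) made the libraries, so the mRNAs that end in a stem-loop were outside its main target and the counts are those of the molecules it captured.

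Barcodes were kept as cells from 5000 UMIs and 400 genes up, where no more than 15% of UMIs were mitochondrial, which left 1058 untreated cells, 917 at 24 h and 2934 at 48 h. Their median depths were 33550, 68784 and 10772 UMIs, so the 48 h cells were much shallower, and at most 4 cell barcodes were shared between any pair of libraries. Irf1, an interferon-induced transcription factor, was read as a check of the labels and stood at 23.4 CPM (counts per 1000000 UMIs of the library's cells) untreated, 331 at 24 h and 310 at 48 h. The epithelial adhesion gene Epcam stood at 1435, 1463 and 1184 CPM. With it, 8 epithelial markers summed to 7113, 5034 and 4519 CPM, and 7 of the 8 were below untreated at each time. At 24 h Epcam was the 1 above. Of 5 immune markers the leukocyte gene Ptprc had 0 UMIs in each library, and the 5 summed to between 2.53 and 3.70 CPM. The collagen genes Col1a1 and Col3a1 were at 0 throughout, and 6 stromal and endothelial markers summed to between 0.394 and 1.26 CPM.

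The stem-loop is the feature that sets these mRNAs apart, and it was read from the transcript sequences of the mm10 annotation. A 16-base match to GGNNNTTTTNANNNCC with all 6 pairs of its stem was found within 200 bases after the stop codon in 42 of the 62 members. It lay 21 to 58 bases after the stop codon, with a median of 31. The 42 members had 6 forms of it, of which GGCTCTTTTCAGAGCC was in 25, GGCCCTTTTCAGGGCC in 7, all of them H4 genes, and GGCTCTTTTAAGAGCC in 5. In the sites below, shown because they cover 4 forms and members that the results turn on, the 16 bases are in capitals.
Hist1h1e, H1, chr13:23621777-23621802, minus strand: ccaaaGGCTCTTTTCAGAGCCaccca
Hist1h1c, H1, chr13:23739507-23739532, plus strand: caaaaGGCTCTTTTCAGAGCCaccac
Hist2h2ac, H2A, chr3:96220413-96220438, minus strand: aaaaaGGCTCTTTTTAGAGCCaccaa
Hist1h3c, H3, chr13:23745042-23745067, minus strand: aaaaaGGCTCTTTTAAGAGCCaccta
Hist1h4d, H4, chr13:23581945-23581970, plus strand: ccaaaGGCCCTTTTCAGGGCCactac
Hist4h4, H4, chr6:136803993-136804018, minus strand: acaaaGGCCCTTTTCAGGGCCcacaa

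Of the 20 members with no match, 14 had annotated ends of fewer than 40 bases after the stop codon, so the stretch where the others carried it was cut short. Among them was Hist1h1b, whose annotated transcript stopped at its stop codon. The annotated transcript of Hist1h1c ran 840 bases past its stem-loop and that of Hist4h4 ran 2445 bases past it, and both carried a poly(A) signal, AATAAA, in their last 50 bases. Of the 62 members, 58 had a single exon in every annotated coding transcript.

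Members of a type were close copies of each other. The 13 H4 members encoded 1 protein of 103 residues, the 12 H3 members 3 proteins, the 16 H2A members 8, the 16 H2B members 11 and the 5 H1 members 5. At the level of RNA, 55 members shared at least 1 stretch of 90 bases with another histone gene, and in 25 of them at least 50% of such stretches were shared. Hist1h2br shared 100% of them. The share given for a gene is the largest among its transcripts, so its other transcripts may share less. Reads that match several genes are dropped by the counting software, so levels of the shared members are uncertain, and each sum over a type is a sum of what could be assigned.

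The members lay in few places. Chromosome 13 held 50 of them in 2 blocks, of 22 members between 21715763 and 22043676 and of 28 members between 23531050 and 23764406. Chromosome 3 held 9, chromosome 11 held 2 and chromosome 6 held Hist4h4 alone. Start regions of 56 members were found among the RefSeq promoters (GRCm38.p6, 250 bases before to 50 after the start), and 4 motifs were searched on both strands, none of which contains another. The octamer ATTTGCAT, the site of Oct-1, was in 6 of 15 H2A and 6 of 14 H2B promoters and in no promoter of another type, against 1.74% of all 32851 promoters. The H1 box AAACACA was in 4 of 5 H1 promoters, against 7.18% of all. CCAAT was in every H1, H2A, H2B and H3 promoter found but in only 3 of 12 H4 promoters, against 37.4% of all, and TATAAA was in 33 of 56, against 13.6%. A match is a match of letters only. Search regions of neighbours that start head to head can overlap, so the same site can count for both genes. The octamer and the TATAAA of Hist1h2bg are the same bases as those found for Hist1h2ae. The counts of promoters are therefore not counts of separate sites. Stretches of 150 bases that end at or near the start site are given, with the matches in capitals, for the member with the most UMIs of all (Hist1h1b), for those with the most in H3 and in H4, and for an H2B gene that stands head to head with an H2A gene. The stretch of Hist1h2bg lies in the 175 bases that it shares, head to head, with the start of Hist1h2ae, and runs on a little way past them.
Hist1h1b, chr13:21780626-21780775, minus strand: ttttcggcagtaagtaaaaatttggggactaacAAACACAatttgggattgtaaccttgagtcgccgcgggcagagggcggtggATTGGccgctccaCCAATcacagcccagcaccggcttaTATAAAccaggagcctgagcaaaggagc
Hist1h2bg, chr13:23571250-23571399, plus strand: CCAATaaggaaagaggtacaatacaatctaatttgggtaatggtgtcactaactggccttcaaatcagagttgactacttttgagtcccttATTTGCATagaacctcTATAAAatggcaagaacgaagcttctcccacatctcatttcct
Hist1h3c, chr13:23745522-23745671, minus strand: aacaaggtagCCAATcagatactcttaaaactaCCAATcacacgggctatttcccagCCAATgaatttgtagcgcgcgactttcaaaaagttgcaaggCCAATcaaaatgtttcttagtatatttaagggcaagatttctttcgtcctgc
Hist1h4d, chr13:23581418-23581567, plus strand: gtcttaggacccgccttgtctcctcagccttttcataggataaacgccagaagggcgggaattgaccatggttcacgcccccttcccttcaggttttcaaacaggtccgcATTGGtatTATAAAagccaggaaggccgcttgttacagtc

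Summed over all 62 members, histone RNA stood at 3159 CPM untreated, 3439.5 CPM at 24 h and 1499 CPM at 48 h. The log2 ratio to the untreated library was 0.12 at 24 h (0.11 to 0.13) and -1.08 at 48 h (-1.09 to -1.06). The value at 24 h was 0.53 with the TMM factors of edgeR, and it was 0.46 both as a mean over cells and in cells thinned to equal depth. All types were lower in the 48 h library than in either other library, while at 24 h they parted. Linker histones stood at 1611, 1699 and 865 CPM in the order untreated, 24 h and 48 h, and H2A at 590, 726 and 229 CPM. H2B was at 267, 264.5 and 121 CPM, H3 at 205, 301 and 111 CPM, and H4 at 486, 449 and 173 CPM. H3 had the highest ratio to untreated at 24 h, with a log2 of 0.56, and H4 the lowest at 48 h, with a log2 of -1.49. A lower level in a library pooled over its cells can come from fewer cells that make histones or from less RNA in each, and the pooled values do not tell these apart.

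**Figure D1:**
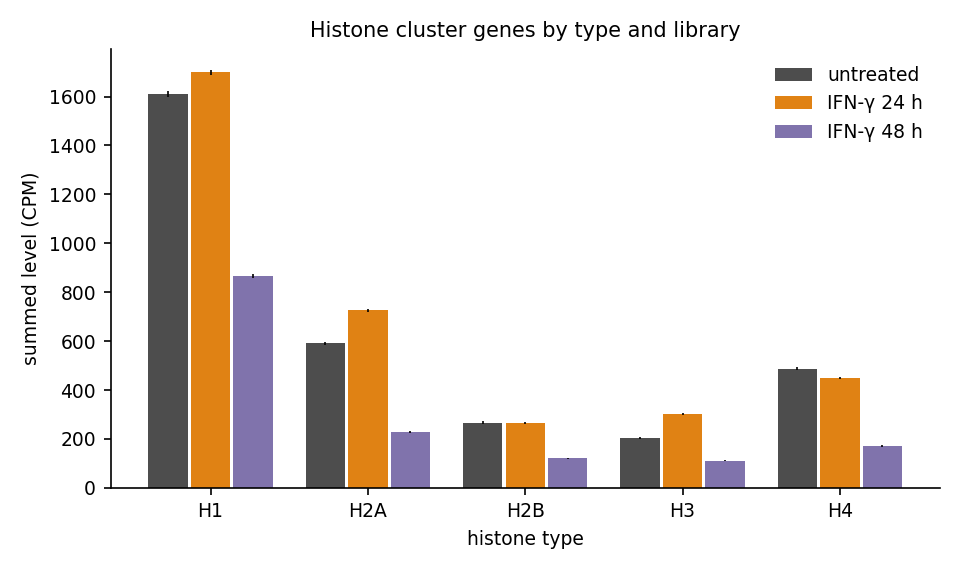
Summed CPM of the histone cluster genes by type (H1, H2A, H2B, H3, H4) in the untreated, 24 h and 48 h libraries, 1 library each, with thin lines for the 95% intervals of counting error. Every type is lowest at 48 h, and H3 is higher at 24 h (301) than untreated (205).

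At 24 h the direction of H2B and H4 depended on the scaling. Their log2 ratios to untreated were -0.013 and -0.12 as CPM, but 0.40 and 0.30 with the TMM factors, which moved the median of all genes from -0.43 to -0.021. H1, H2A and H3 were above the untreated library under each scaling tried. By depth of the cells, as split further on, H2A and H3 stayed above it in every range at 24 h. H1 did not, with log2 ratios of 0.48, 0.38, 0.55 and, in cells of 50000 UMIs or more, -0.14 (-0.15 to -0.13). Among single members, 38 of 62 were above the untreated level at 24 h and 24 below, with 1 past a log2 ratio of 1 and 6 past -1. Of all genes 3.43% were past 1 and 24.4% past -1, and the median log2 ratio was 0.12 over the members and -0.43 over all genes. With the TMM factors 51 were above and 11 below, with 7 past 1, where 6.38% of all genes were, and none past -1, where 15.8% were.

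The member past 1 at 24 h was Hist1h2an, an H2A gene, at 12.2 CPM in untreated cells, 27.4 after 24 h and 8.70 after 48 h. The log2 ratio of the second value to the first was 1.17. Hist1h3c, the H3 member with the most UMIs, followed a like course at 71.5, 120 and 46.5 CPM, and Hist1h3d was at 3.35, 6.46 and 4.13 CPM. These 3 had the highest ratios at 24 h among members with at least 100 UMIs over the untreated and 24 h libraries together. At the other end, Hist1h2br, Hist2h2aa1 and Hist1h2bc were lowest against untreated, with log2 ratios of -1.40, -1.25 and -1.12. The first of them had a transcript in which every stretch of 90 bases was shared with other H2B genes. Hist2h2aa1 and Hist1h2bc are on the list of polyadenylated members described further on.

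At 48 h, 61 of 62 members were below the untreated level and 39 were past a log2 ratio of -1, where 15.3% of all genes were. No member was past 1, against 5.13% of all genes. The median of the members was -1.22 and that of all genes -0.17. These counts are of the pooled cells and were far from alike at each depth, as given further on. As CPM Hist1h3d was the exception, with a log2 ratio of 0.30 (-0.0059 to 0.61). With the TMM factors, as a mean over cells and in thinned cells, 35, 27 and 29 members were past -1 and 1, 3 and 4 were above untreated. The member medians were then -1.06, -0.97 and -0.91, and those of all genes -0.0061, -0.27 and -0.26. The shares of all genes past -1 were not counted for these scalings. As CPM against the 24 h library, all 62 were lower and 45 were past -1, where 2.17% of all genes were (11.3% were past 1). Both treated libraries are set against the same untreated library, so their 2 ratios are not independent.

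**Figure D2:**
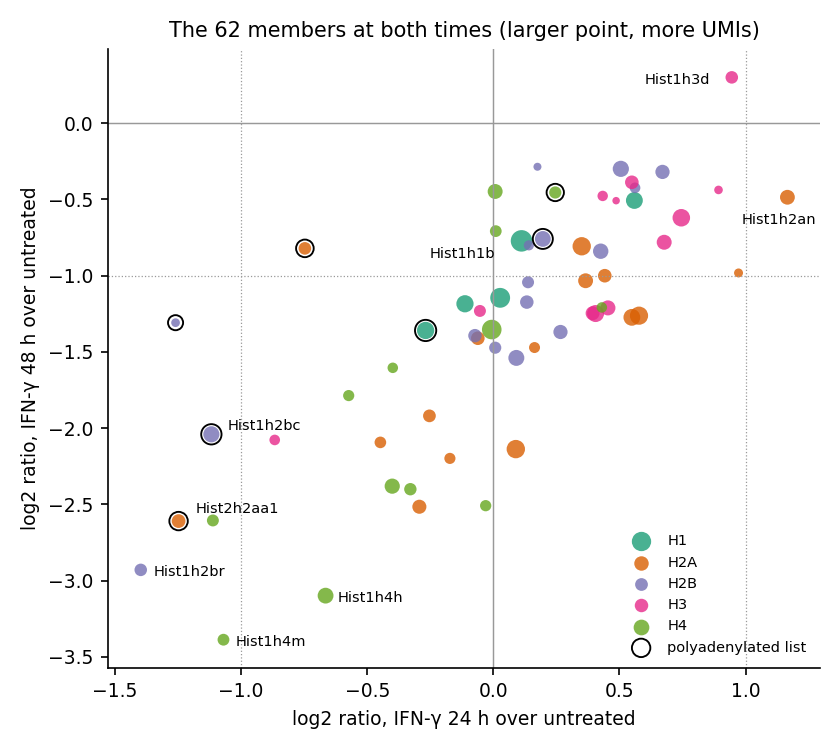
Each of the 62 members by its log2 ratio to the untreated library at 24 h (horizontal) and at 48 h (vertical), coloured by histone type, with point area rising with UMIs and rings around the polyadenylated list; dotted lines mark ratios of 1 and -1. All but Hist1h3d lie below 0 at 48 h, whereas at 24 h 38 lie to the right of 0.

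H1 genes made up 51.0% of the untreated histone UMIs, and Hist1h1b alone had 49066 of 157311. It stood at 985 CPM untreated, 1064.5 at 24 h and 577 at 48 h. Hist1h1e was at 389, 396 and 176 CPM, Hist1h1d at 87.2, 80.7 and 38.4 CPM, and Hist1h1c at 98.1, 81.4 and 38.2 CPM. Hist1h1a was at 51.5, 75.9 and 36.2 CPM, and had the highest ratio of the 5 to untreated at both times, with log2 values of 0.56 and -0.51. The 5 linker genes were thus all lowest in the 48 h library, by less for Hist1h1a and Hist1h1b than for the other 3, whose log2 ratios lay between -1.36 and -1.15.

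Among H2A genes, Hist1h2ap, Hist2h2ac and Hist1h2ae had the most UMIs. Hist1h2ap was at 172, 183 and 39.0 CPM, a log2 ratio of -2.14 at 48 h. Hist2h2ac, at 137, 174 and 78.1 CPM, had a log2 ratio of -0.81, and Hist1h2ae, at 118, 176.5 and 49.3 CPM, one of -1.26. The 3 leading H2A genes were all higher at 24 h than untreated and all lower at 48 h, but to unequal degrees. Hist1h2ab was at 52.9, 77.5 and 21.9 CPM and Hist1h2ak at 18.6, 24.0 and 9.08 CPM.

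H2B genes were led in UMIs by Hist2h2bb and Hist1h2bc, which differed in course. Hist2h2bb was at 34.6, 49.2 and 28.1 CPM, higher at 24 h and among the least lowered at 48 h with a log2 ratio of -0.30. Hist1h2bc was at 68.5, 31.6 and 16.7 CPM, lower at both times. Hist1h2bj was at 40.4, 43.1 and 13.9 CPM, Hist1h2be at 32.5, 37.2 and 19.2 CPM and Hist1h2bm at 24.2, 32.5 and 13.5 CPM. Hist1h2bn, at 10.8, 17.2 and 8.64 CPM, was among the 3 least lowered at 48 h of the members with at least 100 UMIs over the untreated and 48 h libraries together, with Hist2h2bb and Hist1h3d.

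H3 genes were above untreated at 24 h in 10 of 12 cases. After Hist1h3c came Hist1h3e at 64.8, 85.9 and 27.3 CPM, Hist1h3f at 20.3, 27.8 and 8.76 CPM, Hist1h3i at 16.9, 26.9 and 9.80 CPM and Hist1h3b at 10.9, 14.3 and 4.59 CPM. The 5 H3 members with the most UMIs were thus each highest at 24 h and lowest at 48 h.

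H4 genes differed from the H3 genes in that 9 of 13 were below untreated at 24 h as CPM, though only 4 were with the TMM factors. Hist1h4d, with most of the H4 UMIs, was at 343, 342 and 134 CPM. Hist1h4h was at 52.6, 33.2 and 6.14 CPM and Hist1h4c at 32.8, 24.8 and 6.29 CPM. The log2 ratio of Hist1h4h at 48 h was -3.10 (-3.28 to -2.92), and only that of Hist1h4m, another H4 gene with 6.21 CPM untreated and 0.593 at 48 h, was lower, at -3.39. Hist1h2br came next with -2.93. Hist1h4a was at 6.49, 5.16 and 1.23 CPM. Hist1h4i was the H4 gene least lowered at 48 h, at 20.5, 20.6 and 15.01 CPM.

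The pooled difference at 48 h was not the same in cells of every depth. Cells were therefore split into those of 5000 to 10000, 10000 to 20000, 20000 to 50000 and 50000 or more UMIs, a division chosen after seeing the data. Cells of 50000 UMIs or more numbered 408 untreated, 571 at 24 h and 70 at 48 h, and held 87.5%, 94.2% and 9.72% of the histone UMIs of their libraries. In the order of rising depth, summed histone RNA stood at 1809, 1314, 1496 and 3778 CPM in untreated cells. It was 3222, 1940, 2143.5 and 3563 CPM at 24 h, and 1182, 1270, 1712 and 1617 CPM at 48 h. The untreated and 24 h libraries thus had their highest histone levels in the deepest cells, and the 48 h library had no such peak.

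Set against untreated cells of the same depth, the 48 h log2 ratios were -0.61 (-0.68 to -0.55), -0.049 (-0.097 to -0.0013), 0.19 (0.17 to 0.22) and -1.22 (-1.26 to -1.19). Summed histone RNA was therefore much lower at 48 h among the deepest cells, about level from 10000 to 20000 UMIs and slightly higher from 20000 to 50000. The median 48 h log2 ratio of all genes was -0.32, -0.56, -0.42 and -0.043 in the same ranges, so the histone sum was above that median in the 2 middle ranges. At 24 h the log2 ratios of summed histone RNA were 0.83, 0.56, 0.52 and -0.085. The 40 S-phase genes described further on had 48 h log2 ratios of 0.17, -0.25, 0.16 and 0.028 in the same cells. Which cells fall in each range may itself differ between the libraries, and the part of this in the ratios was not tested.

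**Figure D3:**
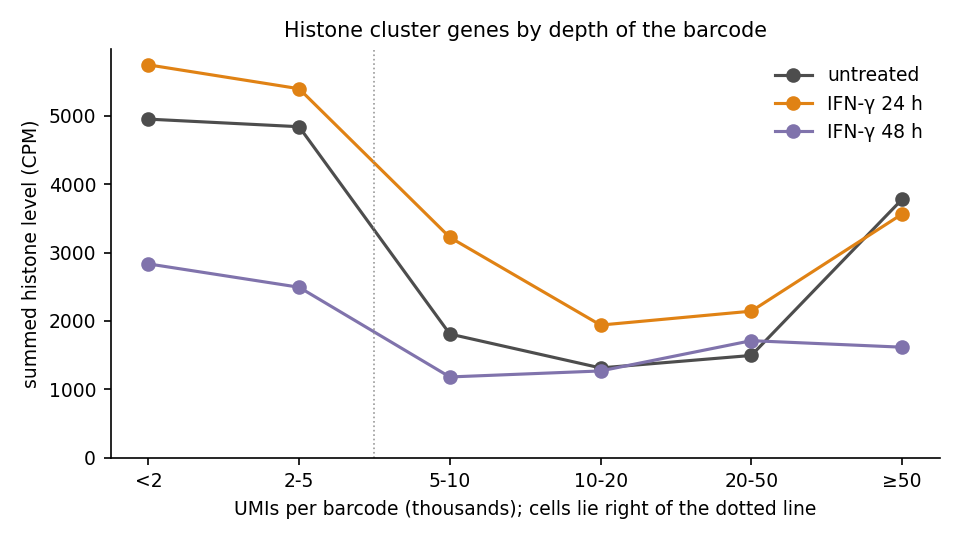
Summed CPM of the 62 members (vertical) in barcodes grouped by depth in UMIs (horizontal), for the 3 libraries; barcodes kept as cells are to the right of the dotted line. Among cells the untreated and 24 h libraries are highest at 50000 UMIs or more (3778 and 3563), where the 48 h library stands at 1617, and all 3 are higher still in the shallow barcodes that were not kept.

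The counts of members at 48 h also changed with depth. From 5000 to 10000 UMIs 54 of the 60 members read in both libraries were below untreated and 35 were past -1, where 24.9% of all genes were. From 10000 to 20000 UMIs 42 of 61 were below and 18 past -1, where 30.1% of all genes were, and from 20000 to 50000 UMIs 34 of 61 were below and 11 past -1, where 27.4% were. In the cells of 50000 UMIs or more 57 of 60 were below and 42 were past -1, where 12.7% of all genes were. Members past -1 were thus close to the share of all genes from 10000 to 20000 UMIs and under it from 20000 to 50000, and they were above it in the shallowest and the deepest cells.

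Types differed in how far the 48 h ratio depended on depth. H4 was below untreated in all 4 ranges, with log2 ratios of -0.95, -0.52, -0.36 and -1.87, and so was H2B, with -0.90, -0.48, -0.53 and -1.33. H1 was not, with -0.27, 0.29, 0.49 and -1.01. H3 ran from -1.01 and -0.28 through 0.42 to -1.02, and H2A from -0.94 and -0.41 through 0.075 to -1.50. Hist1h1b, at 0.15, 0.61, 0.97 and -0.91, was above untreated in the 3 shallower ranges, whereas Hist1h4h, at -2.18, -2.004, -1.61 and -3.51, was far below in each.

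Some members kept 1 direction at every depth. At 48 h, 29 of 62 were below untreated in all 4 ranges, where 33.7% of all genes were, and for 12 of them the interval was below 0 in each, where it was for 10.4% of all genes. The 12 were Hist1h1c and Hist1h1e, the H2A genes Hist1h2ai, Hist1h2ap and Hist2h2aa1, the H2B genes Hist1h2bc and Hist1h2br, and the H4 genes Hist1h4c, Hist1h4d, Hist1h4h, Hist1h4m and Hist1h4n. No H3 gene was among them. Of the members only Hist1h3d was above untreated in all 4 ranges at 48 h, where 11.3% of all genes were. At 24 h, 23 members were above untreated in all 4 ranges, against 13.9% of all genes, 10 of them with intervals above 0 in each, against 3.74%. These were Hist1h1a, the H2A genes Hist1h2ae, Hist1h2an and Hist2h2ac, the H2B genes Hist1h2bm, Hist1h2bn and Hist2h2bb, and the H3 genes Hist1h3c, Hist1h3e and Hist1h3i, with no H4 gene.

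A list drawn up from general knowledge, with earlier results of these data known, held 7 members taken to make polyadenylated mRNA as well. The listed members were Hist1h1c, Hist1h2bc, Hist1h2be, Hist2h2be, Hist2h2aa1, Hist3h2a and Hist4h4. Together they stood at 230 CPM untreated, 167 at 24 h and 84.4 at 48 h, while the other 55 stood at 2929, 3272 and 1415 CPM. As CPM of the pooled cells the listed members were lower at both times, with log2 ratios of -0.46 (-0.49 to -0.42) and -1.44 (-1.50 to -1.39). The first of these was -0.044 with the TMM factors, -0.051 as a mean over cells and -0.067 (-0.20 to 0.065) in thinned cells, an interval that spans 0. The other 55 had log2 ratios of 0.16 (0.15 to 0.17) and -1.05 (-1.06 to -1.04).

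At 48 h the sum of the rest changed direction with depth, and that of the listed members did not. Their log2 ratios were -1.35, -0.83, -1.16 and -1.33 from the shallowest to the deepest range, below untreated in every one. The other 55 were at -0.55, 0.014, 0.33 and -1.22. Of the 55, Hist1h1b had the most UMIs, and it was above untreated except in the deepest cells. A lower level at every depth was not particular to the list, as the H4 sum had it too. The listed Hist4h4 held 1.04% of the H4 UMIs. The H2B sum was also lower at every depth, but it includes the listed Hist1h2bc, Hist1h2be and Hist2h2be. It was not split by depth without them. Of the 12 members with intervals below 0 in each range, Hist1h1c, Hist1h2bc and Hist2h2aa1 were listed. At 24 h the listed members ran from 1.02 and 0.30 in the shallower ranges to -0.44 and -0.57 in the deeper ones, so their pooled 24 h value rests on the deep cells.

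Within the list the H2B gene Hist1h2bc and the linker gene Hist1h1c carried most of the UMIs. Hist1h2bc had 48 h log2 ratios of -1.92, -1.14, -2.32 and -1.85 by depth, and Hist1h1c had -1.18, -0.68, -0.91 and -1.09. Hist2h2aa1 was at 18.5, 7.78 and 3.03 CPM in the pooled libraries, Hist3h2a at 7.11, 4.24 and 4.02 CPM and Hist2h2be at 0.944, 0.394 and 0.381 CPM. Hist1h2be and Hist4h4 went against the others at 24 h, at 37.2 against 32.5 CPM and 4.71 against 3.98 CPM, and had the smallest lowering of the list at 48 h, with log2 ratios of -0.76 and -0.46.

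The annotation drew the line elsewhere. A transcript that ended at least 100 bases past the stem-loop, or had none, and carried a poly(A) signal in its last 50 bases was annotated for 14 members, 5 of them on the list. Hist1h2bc and Hist2h2aa1 were not among the 14, and Hist1h2ae, with 20760 UMIs, was. Hist1h2bc, with 2 exons, 742 bases after the stop codon and no stem-loop, fell outside only because no poly(A) signal was matched. Hist1h2br, which had the lowest ratio at 24 h, was among the 14 though not on the list. Grouped in this way the log2 ratio of the polyadenylated members was 0.17 at 24 h, above untreated in place of below, and -1.17 at 48 h. The listed members' direction at 24 h therefore depends on which genes are called polyadenylated.

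Whether histone RNA went with S phase was read cell by cell. Each cell was thinned at random to 5000 UMIs, and 40 S-phase genes (among them Pcna and the Mcm genes of the replication helicase) and 53 G2/M genes (among them Top2a and Mki67) were summed. Cells at or above the 75th percentile of all 4909 cells, 18 UMIs for S and 48 for G2/M, were called S-high, G2/M-high or both high, and the rest low. These are ranges of a score and not cell types, and 547 cells lay within 1 UMI of the S limit. S-high cells, which leave out those high in both, were 22.4% of the untreated, 24.3% of the 24 h and 20.8% of the 48 h cells. Both-high cells were 8.9%, 6.5% and 2.0%, and low cells were 46.2%, 41.3% and 57.7%.

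Summed over all members, histone RNA was higher in S-high than in low cells of every library. In untreated cells it was 4395 CPM in S-high and 1335 CPM in low cells, a log2 ratio of 1.72 (1.70 to 1.74). At 24 h it was 4827 and 2391 CPM, a log2 ratio of 1.01 (0.999 to 1.03), and at 48 h the log2 ratio was 0.78 (0.75 to 0.80). Counted in the thinned cells the 3 ratios were smaller, at 1.29, 0.68 and 0.53, in the same order. The order of the libraries did depend on depth. Among cells of 5000 to 50000 UMIs the ratios were 0.78, 0.49 and 0.77, and among deeper ones 1.89, 1.04 and 0.78, so the untreated library stood above the 48 h library only among the deeper cells. With the 50th percentile as the limit, the 24 h library had the highest ratio, at 2.19. The S-phase genes themselves had log2 ratios of 1.71, 0.79 and 0.90 in S-high over low cells, in the order of the libraries. The classes were thus further apart by S-phase genes in untreated cells, and the part of this in the histone ratios was not tested. Of the types, only the H2B sum changed direction with thinning. Its log2 ratios of S-high over low cells were 0.77, 0.57 and 0.42, and in thinned cells 0.35, -0.17 and -0.067.

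High histone RNA was not particular to S-high cells. G2/M-high cells were at 3928, 3451 and 1739 CPM in the 3 libraries, and their log2 ratios over low cells were 1.56, 0.53 and 0.55. For cells in which both scores were high the ratios over low cells were 2.23, 0.90 and 0.45. The log2 ratio of S-high over G2/M-high cells was 0.16, 0.48 and 0.23, and in the thinned cells -0.13, 0.38 and 0.042, so in untreated cells its direction depended on the counting.

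**Figure D4:**
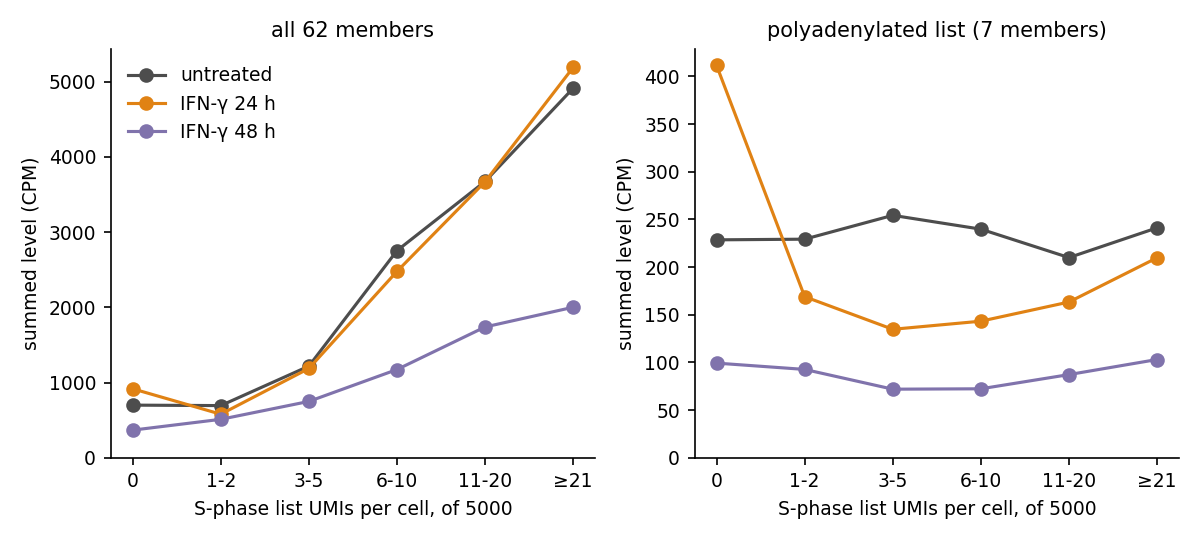
Summed CPM of all 62 members (left) and of the polyadenylated list (right) in cells grouped by their S-phase UMIs after thinning to 5000 UMIs, for each library. From the first step to the last, the sum of all members goes from 700 to 4912 in untreated cells and from 368 to 2001 at 48 h. At 24 h it goes from 917 (9 cells) through a low of 580 at the second step to 5188. The polyadenylated list stays between 210 and 254 in untreated cells.

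Across steps of the S-phase score the summed level climbed from 700 CPM in the 15 untreated cells with no S-phase UMI to 4912 CPM in the 251 with 21 or more. It went from 917 CPM, in 9 cells, to 5188 CPM at 24 h and from 368 to 2001 CPM at 48 h. With 1 to 2 S-phase UMIs it was 694 CPM untreated and 580 CPM at 24 h, the lowest steps of those libraries. At the top of the score the cells had median depths of 23488, 68734.5 and 9191.5 UMIs in the order of the libraries. Their median histone UMIs after thinning were 9, 18 and 6. The 48 h cells were thus lowest there both as CPM and after thinning, but cells of unlike depth are compared. The sum of the polyadenylated list did not climb over these steps in untreated cells, where it was between 210 and 254 CPM at every step. At 24 h it was 412 CPM in the 9 cells with no S-phase UMI and between 135 and 210 CPM in the rest, and at 48 h between 72.0 and 103 CPM. The log2 ratio of this sum in S-high over low cells was 0.098, 0.37 and 0.42, and in the thinned cells -0.22, -0.26 and 0.055. Members of the list differed from each other in this ratio, as given further on. Over single cells Pearson's r of thinned histone UMIs with the S-phase sum was 0.36, 0.28 and 0.30 in the order of the libraries, and with the G2/M sum 0.44, 0.25 and 0.32. For the polyadenylated list and the S-phase sum it was -0.025, -0.0047 and 0.021. These are descriptions over 1058, 917 and 2934 cells that share, within each r, 1 library and its depth.

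Of the members, 55 were past a log2 ratio of 1 in S-high over low untreated cells, where 7.7% of all genes were. At 24 h 11 were past it, where 4.75% of all genes were, and at 48 h 5 were, where 5.39% were. Members above 0 numbered 58, 55 and 50. These counts have the same limit, that the S-phase genes also parted the classes further in untreated cells. By the mean over the 3 libraries the linker genes Hist1h1a and Hist1h1b came first, with log2 ratios of 2.66, 1.47 and 1.21 for the first and 2.34, 1.35 and 0.98 for the second. In single libraries other members passed Hist1h1b, among them the H2A genes Hist1h2ao (2.47, on few UMIs) and Hist1h2ad (2.38) in untreated cells and the H3 genes Hist1h3d and Hist1h3g (both 1.10) at 48 h. In untreated cells Hist1h1b was at 1598.5 CPM in S-high and 316 CPM in low cells.

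At the bottom of that order stood 3 members of the polyadenylated list. Hist1h2bc was at 39.7 CPM in S-high and 98.8 CPM in low untreated cells, and its log2 ratios in the 3 libraries were -1.32, -0.72 and -0.29. Hist3h2a had -1.17, -0.52 and -1.05, and Hist2h2be, with few UMIs, had -1.51, -1.30 and -2.46. These 3 were higher in low than in S-high cells in every library. The other listed members were not of that kind: Hist1h1c had 0.60, 0.70 and 0.69, and Hist2h2aa1 had 1.56 in untreated cells.

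**Figure D5:**
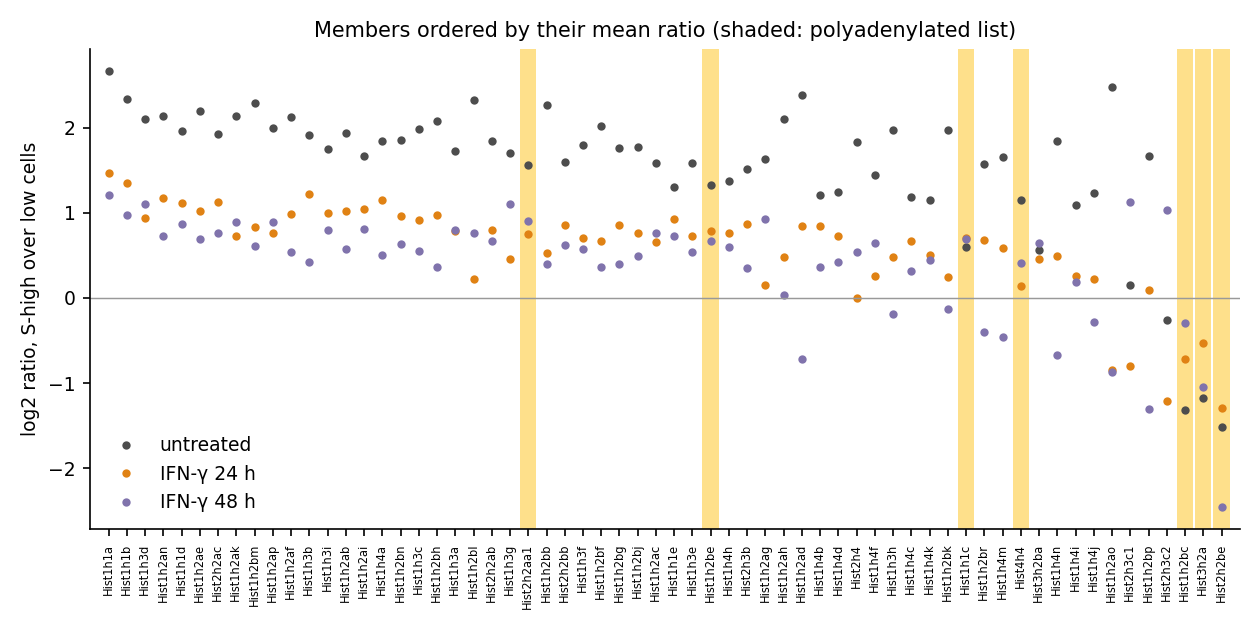
Log2 ratio of S-high over low cells for each of the 62 members in the 3 libraries, ordered by the mean of the 3, with the polyadenylated list shaded. Hist1h1a (2.66 untreated) and Hist1h1b (2.34 untreated) have the highest means, and Hist1h2bc, Hist3h2a and Hist2h2be are below 0 in each library.

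Types were not alike in how they split between S-high and G2/M-high cells. For H1 the log2 ratio of S-high over G2/M-high was 0.40, 0.72 and 0.44 in the 3 libraries, and for H4 it was -0.40, -0.13 and -0.41. In the thinned cells these were 0.11, 0.61 and 0.21 for H1 and -0.59, -0.13 and -0.25 for H4. Summed H1 RNA was thus relatively higher in S-high cells and summed H4 RNA in G2/M-high cells, in each library and in both ways of counting. Hist1h1b held 62.8% of the H1 UMIs and Hist1h4d 74.3% of the H4 UMIs. Not every member followed its sum, as Hist1h4a had 0.52, 0.90 and 0.12, the last with an interval that spans 0.

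The class of cell also mattered for the comparison with untreated cells. For the 55 members outside the polyadenylated list the median log2 ratio at 24 h was 0.018 in S-high cells and 1.13 in low cells. At 48 h it was -1.45 in S-high and -0.049 in low cells. Summed over the 55, the 24 h log2 ratio was 0.15 in S-high, -0.47 in both-high, -0.16 in G2/M-high and 0.98 in low cells, and in thinned S-high cells it was 0.54. At 48 h the summed log2 ratio was -1.11 in S-high, -1.94 in both-high, -1.16 in G2/M-high and -0.026 in low cells. The classes themselves were not alike between libraries. In low cells the S-phase genes had log2 ratios to untreated of 0.60 at 24 h and 0.48 at 48 h, and the G2/M genes 0.81 and 0.64. In S-high cells the S-phase genes were at -0.32 and -0.33. The part of this in the histone ratios was not tested.

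Genes outside the family whose level followed summed histone RNA most closely over single cells were Top2a, Pclaf, Hmgb2, Ptma, Stmn1, H2afz, Tuba1b, Tubb5, Hmgb1 and Dut. Their mean r over the 3 libraries ran from 0.37 for Top2a to 0.24 for Dut, among 8011 genes seen in at least 5% of thinned cells of each library. Top2a encodes the topoisomerase that untangles copied chromosomes, Pclaf binds the replication clamp and Dut keeps uracil out of DNA. Top2a and Hmgb2 are themselves genes of the G2/M list.

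Histone RNA was also counted in barcodes too shallow to be kept as cells. In barcodes with fewer than 2000 UMIs it was 4950 CPM untreated, 5743 CPM at 24 h and 2834 CPM at 48 h, higher than in the cells of the same library by log2 ratios of 0.65, 0.74 and 0.92. Their median mitochondrial share was 0.131%, 0.0749% and 0.113%, against 4.83%, 2.12% and 6.14% in the cells. The order of the 3 libraries was the same in these barcodes as in the cells, and its part in the cells' values was not tested.

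Histones that are made outside S phase, from single genes with ordinary poly(A) tails, were read beside the members. The 11 of the list summed to 4867, 5265 and 3934 CPM, with log2 ratios of 0.11 at 24 h and -0.31 at 48 h. Of the 10 with at least 20 UMIs none was past 1 or -1 at 24 h, where 3.43% and 24.4% of all genes were. At 48 h none was past 1, where 5.13% of all genes were, and 2 were past -1, where 15.3% were. The 2 were the linker histone H1f0, known to accumulate in cells that stop dividing, at 158, 136 and 72.0 CPM, and H2afv at 127, 79.8 and 54.7 CPM. H2afz was at 1482, 2015 and 1551 CPM. H3f3a, at 797, 668 and 446.5 CPM, and H3f3b, at 1541, 1534 and 1090 CPM, had 48 h log2 ratios of -0.84 and -0.50.

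At 48 h, genes that supply histone RNA or handle the proteins moved little next to the pooled sum of the members. At 24 h that sum was itself at a log2 ratio of 0.12, and the supply groups lay on both sides of it. None of the 25 supply genes found was past a log2 ratio of 1 or -1 at either time. Of all genes, 3.43% were past 1 and 24.4% past -1 at 24 h, and 5.13% and 15.3% at 48 h. The transcription group, with Npat, the coactivator of histone loci, had summed log2 ratios of -0.20 and 0.12, and the 3′ processing group 0.11 and 0.075. Slbp itself was at 102, 110 and 87.4 CPM. The chaperones that carry new histones were at 0.26 and 0.14, with Nasp, a carrier of H3 and H4, at 224, 361 and 355 CPM. The S-phase genes summed to 2704, 2855 and 2572 CPM and the G2/M genes to 7752, 8676 and 7367 CPM. Their pooled log2 ratios at 48 h were -0.072 and -0.073, against -1.08 for the histone sum. At 24 h they were 0.079 and 0.16, against 0.12.

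Members stood head to head in 10 pairs, each an H2A gene with an H2B gene whose start sites were 175 to 301 bases apart. The stretch printed for Hist1h2bg is from the closest pair. Partners were not read at equal levels, and the UMIs of one over the other ran from 1.24 times for Hist1h2bk over Hist1h2ah to 246 times for Hist2h2ac over Hist2h2be. Hist1h2ap had 29.1 times the UMIs of Hist1h2br. The H2A gene was the higher one in 6 of the 10. Reads that match several genes are dropped, so these ratios and this count are of UMIs that could be assigned. Of the stretches compared between histone genes above, Hist1h2br shared 100% and Hist1h2ap 92.4%, but Hist2h2ac 11.1% and Hist2h2be 0%. The part of such sharing, and of the annotated ends, in the ratios was not tested. Partners also differed in course, as in Hist1h2ac and Hist1h2bc, with 24 h log2 ratios of -0.062 and -1.12. The 2 blocks on chromosome 13 had median 48 h log2 ratios of -1.04 and -1.27, and the 9 members on chromosome 3 had a median of -0.81.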

How the data were processed

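Single-cell RNA was captured with a 3′ kit. Per the labels and the study's methods the authors aligned reads to mm10 with Cell Ranger 6.0.1 and deposited UMI counts per gene and barcode, not normalized; the annotation release is not given in the sources used here. Cells were kept by the study's limits. Counts were summed per library and scaled to CPM, and members were compared as log2 ratios with exact conditional binomial intervals (95%, counting error only). A count of 0 was set to a floor of 3 counts. With 1 library per condition there was no test. Doublets were not called; leaving out the deepest 5% of cells was an alternative. The members and gene lists were chosen with earlier results of these data known. Members named were the 5 with the most UMIs per type, the polyadenylated list, the 3 largest changes each way at each time and those next to the minimum; members named for being alike across depths were added after their values were seen. Stem-loops were read from GENCODE vM21 transcripts and promoters from RefSeq. The interval and ratio code was tested on simulated data. Python 3.11.15, numpy 2.4.6, scipy 1.17.1, pandas 2.3.3, R 4.3.3 and edgeR 4.0.16 (TMM factors only) were used.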

Additional observations from a re-analysis of the deposited data

How the results depend on the processing

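No paired analysis was possible because each condition has 1 library, and for the same reason no replicate could be left out. Values are log2 ratios to untreated, in the order summed members at 24 h and 48 h, members outside the polyadenylated list at 24 h and 48 h, and polyadenylated list at 24 h and 48 h. A move is one larger than the counting interval, and the causes were not tested. With TMM factors they were 0.53, -0.91, 0.57, -0.89, -0.044 and -1.28, as a mean over cells 0.46, -0.81, 0.49, -0.77, -0.051 and -1.33, and in thinned cells 0.46, -0.80, 0.50, -0.77, -0.067 and -1.33. With at least 10000 UMIs a cell the first 4 were 0.11, -1.01, 0.15 and -0.99. With at least 2000 UMIs they were 0.069, -0.94, 0.10 and -0.91, with -1.35 for the list at 48 h. At most 10% mitochondrial UMIs gave 0.046, -1.11, 0.082 and -1.09, with -0.52 for the list at 24 h. Without the deepest 5% of cells they were 0.26, -1.05, 0.31 and -1.03, with -0.37 for the list at 24 h. With polyadenylated members by annotation, the last 4 were 0.12, -1.07, 0.17 and -1.17, which turned the list's direction at 24 h.

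Other alternatives were chosen after seeing the data. Without Hist1h1b the summed members were at -1.24 at 48 h, and those outside the list at 0.18 and -1.21. By depth the values moved, apart from the list at 24 h from 20000 to 50000 UMIs, and several turned direction. From 5000 to 10000 UMIs they were 0.83, -0.61, 0.81, -0.55, 1.02 and -1.35. From 10000 to 20000 they were 0.56, -0.049, 0.59, 0.014, 0.30 and -0.83. From 20000 to 50000 they were 0.52, 0.19, 0.62, 0.33, -0.44 and -1.16. From 50000 up they were -0.085, -1.22, -0.056, -1.22, -0.57 and -1.33. At 24 h only the summed members and those outside the list kept their sign below 50000 UMIs, and at 48 h only the list kept its sign in all 4 ranges.

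For S-high over low cells, in the order untreated, 24 h and 48 h, thinned counts gave 1.29, 0.68 and 0.53, the 90th percentile 1.19, 0.61 and 0.59, and at least 10000 UMIs 1.64, 0.88 and 0.84. The 50th percentile gave 2.19 at 24 h and 1.23 at 48 h. From 5000 to 50000 UMIs the untreated and 24 h values were 0.78 and 0.49, and from 50000 up 1.89 and 1.04. Where the whole interval had to lie past the fold, 3 members were lower at 24 h, 5 were higher in S-high cells at 24 h and 1 at 48 h. With at least 100 UMIs a member, which 58 met, 3 were higher in S-high cells at 48 h. The shares of all genes under these stricter rules were not counted. These counts therefore show only how the members' own counts moved. The 70 deepest cells at 48 h limit what can be said of that range.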
